A study of Mus musculus with 9 samples.

Results

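The NF-κB subunits and the IκB proteins that bind them were followed as 10 genes in mouse bone marrow (BM)-derived Mϕs: the 5 subunits Nfkb1, Nfkb2, Rel, Rela and Relb, and the 5 IκB genes Nfkbia, Nfkbib, Nfkbie, Bcl3 and Nfkbiz. The genes were taken by symbol, as a family, from the 53379 Ensembl gene identifiers of the deposited table, and all 10 were found. Nfkb2 and Bcl3 were also singled out in the study from the same libraries, so their direction there is not independent evidence. All cells came from C57BL/6 mice and were grown from BM in CSF-1 (MCSF, the growth factor that makes Mϕs from BM cells) at 10 ng/ml for 3 days. Control Mϕs then stayed in 10 ng/ml CSF-1 alone, IL-4 Mϕs received 10 ng/ml CSF-1 with 10 ng/ml IL-4, and IL-6 Mϕs received 10 ng/ml CSF-1 with 100 ng/ml IL-6, each for 4 days according to the labels. The dose and length of treatment are stated differently elsewhere in the study, so they are given here as the labels have them. Each group held 3 libraries, Control #1 to #3, IL-4 #1 to #3 and IL-6 #1 to #3, from BM of 3 mice. The cultures are BM cells grown in CSF-1 and not sorted, and the levels measured are of RNA, not of protein or of nuclear NF-κB.

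NF-κB is a family of transcription factors that act as dimers of 5 related proteins. In resting cells the dimers are held in the cytoplasm by IκB proteins, and stimulation of Toll-like or cytokine receptors leads IκB kinase to mark the classical IκB proteins for destruction, which frees RelA and c-Rel dimers for the nucleus. In the slower, non-canonical route, the product of Nfkb2 is cut from a long precursor and pairs with RelB. Nfkbia, Nfkb2, Relb and several other members are known targets of NF-κB itself, so that the family feeds back on its own levels. Bcl3 and Nfkbiz belong to the atypical IκB proteins, which act in the nucleus as partners of NF-κB dimers at chosen genes.

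The libraries held 29988160 to 39909571 fragments, and the 10 genes had between 89 (Nfkbiz in IL-4 #3) and 8086 (Nfkbia in IL-6 #1) fragments in a library. Levels are FPKM, fragments per kilobase of a gene's exons and per 1000000 fragments, and can be compared between genes. Arg1, a marker of the IL-4 response, had a mean of 1044 FPKM in IL-4 and 0.577 in control Mϕs, and Socs3, a feedback inhibitor induced by STAT3, had 80.4 FPKM in IL-6 and 2.27 in control Mϕs. Neither treatment label was contradicted. The libraries also fell into sets that follow neither group nor number: fragments of 13 intestinal genes amounted to 22.5 to 32.5 per 1000000 fragments in IL-4 #1 and the 3 controls, against 0.099 to 0.245 in the remaining 5. No set thus holds both controls and IL-6 libraries, and a second fit, adjusted for the set, is given beside the main one. The second fit draws on how IL-4 #1 differs from IL-4 #2 and #3, so that IL-4 #3 weighs on its estimates for IL-6. A shift after this adjustment can therefore come from IL-4 #3 as well as from the set. IL-4 #3 stood apart from its group, with a root mean square difference of 1.08 and 1.23 in log2 from the other IL-4 libraries, which differed by 0.536 from each other. Summed over 10 Mϕ markers, the libraries held 7449 to 8390 fragments per 1000000 in control Mϕs, 3290 to 4840 in IL-4 Mϕs and 7145 to 7620 in IL-6 Mϕs. Summed over 8 neutrophil markers, they held 1617 to 2721 in control Mϕs, 655 to 868 in IL-4 Mϕs and 2425 to 3498 in IL-6 Mϕs. No marker of either list was at 0 in any library, and 7 of the 8 neutrophil markers were lower in every IL-4 library than in any control library. Between IL-6 and control Mϕs the summed neutrophil markers overlapped. Taken singly, 1 of the 8 was higher in every IL-6 library than in any control library and 0 were lower. Of the 10 Mϕ markers, 3 were higher and 1 lower in that sense. Against IL-4, 7 of the 8 neutrophil and 6 of the 10 Mϕ markers were higher in every IL-6 library, and 0 were lower. Both lists thus moved with IL-4, as many members did, and their part in the members' differences was not tested. In such mixed RNA, fewer cells of a type and less RNA per cell cannot be told apart.

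IL-6 Mϕs had more RNA than control Mϕs for 5 of the 10 genes and IL-4 Mϕs had less for 7 of the 10, counts that were 3 and 5 after adjustment for the set of libraries. Groups were compared by limma on log2(FPKM + 0.1). The 12824 genes tested averaged 0.5 FPKM or more, all 10 members were among them, and a gene passed at a Benjamini-Hochberg adjusted p under 0.05 over all genes tested. Between IL-4 and control, 0 members rose and 7 fell (Nfkbiz, Relb, Nfkbia, Nfkb2, Bcl3, Rela and Nfkbie), where 8.55% of all genes tested rose and 16.3% fell. Between IL-6 and control, 5 members rose (Nfkbie, Nfkbia, Nfkb2, Bcl3 and Relb) and 0 fell, where 4.58% of all genes rose and 3.82% fell. Between IL-6 and IL-4, 7 members were higher in IL-6 Mϕs (Nfkbiz, Nfkbie, Relb, Nfkbia, Nfkb2, Bcl3 and Rela) and 0 were lower, where 20.8% of all genes were higher and 13.3% lower. The 2 comparisons with control share the control libraries. The median log2 fold change of the members was −0.62 with IL-4 and 0.99 with IL-6, against −0.20 and −0.004 over all genes tested. Between IL-6 and IL-4 it was 1.99, against 0.22 over all genes. When libraries were rescaled by median ratios, 49.4% in place of 34.4% of the genes that passed with IL-4 were higher, and 48.5% in place of 61.1% between IL-6 and IL-4, while no member that passed changed direction. An exact two-sided permutation test of 3 libraries against 3 cannot give a p below 0.1, and gave 0.1 for every member that passed.

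**Figure D1:**
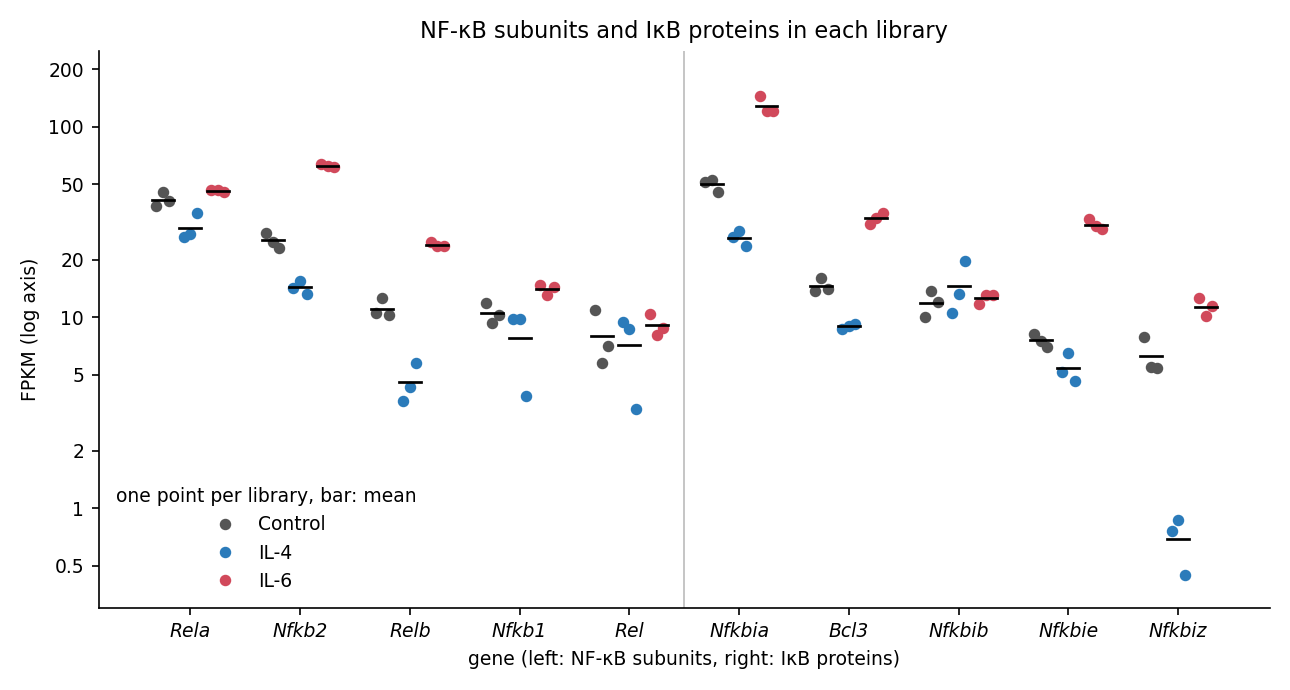
FPKM of the 5 NF-κB subunits (left) and 5 IκB genes (right) on a log axis, 1 point per library, black bars for the group means, n = 3 libraries per group. For Nfkb2, Relb, Nfkbia, Bcl3, Nfkbie and Nfkbiz the points of the 3 groups lie in separate ranges with IL-6 highest and IL-4 lowest, while the points of Rel and Nfkbib overlap.

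Among the subunits, the pair of the non-canonical route, Nfkb2 and Relb, moved in both directions. Nfkb2 (chr19:46304320-46312385 in GRCm38, plus strand), which encodes the precursor p100 and its product p52, had 27.8, 24.98 and 23.2 FPKM in Control #1 to #3. It had 14.3, 15.6 and 13.3 FPKM in the IL-4 libraries. It had 63.4, 61.9 and 61.5 FPKM in the IL-6 libraries. All IL-4 libraries lay below and all IL-6 libraries above the controls, and the IL-6 libraries differed among themselves by less than those of the control or IL-4 group (SD 0.99). The log2 fold change of Nfkb2 was 1.297 with IL-6 (standard error (SE) 0.111, limma adjusted p = 0.000354), a ratio of means of 2.46. With IL-4 it was −0.81 (SE 0.111, adjusted p = 0.00118), a mean of 14.4 ± 1.13 (SD, n = 3) against 25.3 ± 2.35 FPKM in control Mϕs. Exons of Nfkb2 share 299 bases with those of Psd and 531 with a noncoding gene on the opposite strand. The libraries were made with a strand-specific kit, and whether the counting used strand is not given in the sources used here. The identifiers of Nfkb2, Rela, Nfkbie and Nfkbiz, 4 of the 10 genes, have another version in the table than in GENCODE M21, from which coordinates and shared bases are taken.

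Relb (chr7:19606217-19629438, minus strand) encodes the partner of p52. Its level was 10.5, 12.6 and 10.3 FPKM in the control libraries. It was 3.65, 4.29 and 5.74 FPKM in the IL-4 libraries and 24.7, 23.7 and 23.7 FPKM in the IL-6 libraries. No library of any group reached the range of another. Relb rose with IL-6 by 1.11 in log2 (SE 0.173, limma adjusted p = 0.00631), from a mean of 11.1 ± 1.27 to 24.1 ± 0.565 FPKM (SD, n = 3). Its log2 fold change with IL-4 was −1.285 (SE 0.173, adjusted p = 0.00113), the largest fall among the subunits, to 0.411 of the control mean. After adjustment for the set of libraries the rise with IL-6 was 0.68 (SE 0.265) and no longer passed (adjusted p = 0.247), while the difference with IL-4 was −1.575 (adjusted p = 0.00366).

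Rela (chr19:5637483-5648130, plus strand), the main activating subunit of the canonical route, was the most abundant subunit in control and IL-4 Mϕs. It had 38.2, 45.2 and 40.7 FPKM in the control, 26.3, 27.3 and 35.2 in the IL-4 and 46.4, 46.5 and 45.6 in the IL-6 libraries. The IL-6 libraries lay just above the highest control, and IL-4 #3 just below the lowest. The log2 fold change of Rela was 0.16 with IL-6 (SE 0.135, limma adjusted p = 0.571), with a sign that turned after adjustment for the set (−0.08). With IL-4 it was −0.49 (SE 0.135, adjusted p = 0.03), and this call was lost in 8 of the 9 fits that left out 1 library (adjusted p up to 0.107), in all but the 1 without IL-4 #3, where it was 0.00103. It was also lost when libraries were rescaled by median ratios (log2 fold change −0.29, adjusted p = 0.366) and after adjustment for the set, at a log2 fold change of −0.65 (SE 0.182, adjusted p = 0.0656).

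Nfkb1 and Rel did not pass in any of the 3 comparisons. Nfkb1 (chr3:135584655-135691547, minus strand), which encodes p105 and p50, had 12.0, 9.36 and 10.3 FPKM in the control libraries. It had 9.76, 9.84 and 3.85 FPKM in the IL-4 and 14.8, 13.2 and 14.5 FPKM in the IL-6 libraries. Each IL-6 library exceeded each control, but the spread within the IL-4 group entered the error of all comparisons. The log2 fold change of Nfkb1 with IL-6 was 0.42 (SE 0.332, limma adjusted p = 0.544), and it passed once IL-4 #3 was left out (adjusted p = 0.0216 at the same fold change). With IL-4 it was −0.54 (adjusted p = 0.277), a value that rested on IL-4 #3 and was −0.10 without it. Between IL-6 and IL-4 it was 0.96 (SE 0.332, adjusted p = 0.0548). That difference was 1.18 after adjustment for the set (adjusted p = 0.0338) and 0.52 without IL-4 #3 (adjusted p = 0.00771). Rel (chr11:23736847-23770970, minus strand) encodes c-Rel, the subunit typical of lymphoid and myeloid cells, and had 10.95, 5.78 and 7.10 FPKM in the control libraries. It had 9.41, 8.73 and 3.32 FPKM in the IL-4 and 10.4, 8.04 and 8.84 in the IL-6 libraries, and all groups overlapped. The SE of its differences was 0.400 in log2, so that a difference of the size seen for Nfkb2 with IL-4 would have been about 2 SE for Rel. Its log2 fold changes were −0.23 with IL-4 (adjusted p = 0.699) and 0.24 with IL-6 (adjusted p = 0.786). With IL-4 the estimate was 0.24 without IL-4 #3 and 0.29 after adjustment for the set (adjusted p = 0.489 and 0.839). With IL-6 it was 1.03 after that adjustment (SE 0.678, adjusted p = 0.342).

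Among the classical IκB proteins, Nfkbia and Nfkbie moved with both cytokines and Nfkbib did not pass. Nfkbia (chr12:55489410-55492647, minus strand) encodes IκBα, the inhibitor that is destroyed and resynthesized fastest, and was the most abundant of the 10 genes in control and IL-6 Mϕs. Its control libraries had 51.6, 52.7 and 45.5 FPKM. Its IL-4 libraries had 26.4, 28.4 and 23.7 FPKM and its IL-6 libraries 144.0, 121.5 and 120.4 FPKM. The 3 ranges were far apart. Nfkbia rose with IL-6 by 1.36 in log2 (SE 0.125, limma adjusted p = 0.000508), a ratio of means of 2.58. With IL-4 its log2 fold change was −0.93 (SE 0.125, adjusted p = 0.00108), a mean of 26.1 ± 2.37 against 49.9 ± 3.84 FPKM (SD, n = 3).

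Nfkbie (chr17:45555703-45563169, plus strand), which encodes IκBε, a slower inhibitor of RelA and c-Rel dimers, had the largest rise with IL-6 of the 10 genes. It had 8.20, 7.55 and 7.01 FPKM in the control, 5.17, 6.47 and 4.65 in the IL-4 and 32.7, 30.0 and 29.1 in the IL-6 libraries. The IL-6 libraries were all above 3 times the highest control. The log2 fold change was 2.00 with IL-6 (SE 0.145, limma adjusted p = 0.000182), 4.04 times the control mean. With IL-4 it was −0.49 (SE 0.145, adjusted p = 0.0415), and that call was lost in 7 of the 9 fits that left out 1 library, all but those without IL-4 #2 or IL-4 #3 (adjusted p up to 0.135), after adjustment for the set (log2 fold change −0.54, adjusted p = 0.171) and with median-ratio rescaling (log2 fold change −0.29, adjusted p = 0.136). Nfkbib (chr7:28758251-28767512, minus strand) encodes IκBβ, and its libraries overlapped between all groups. It had 10.0, 13.8 and 12.1 FPKM in the control, 10.55, 13.3 and 19.8 in the IL-4 and 11.8, 13.2 and 13.1 in the IL-6 libraries. It differed by 0.10 in log2 with IL-6 (SE 0.228, adjusted p = 0.85) and by 0.24 with IL-4 (SE 0.228, adjusted p = 0.472). The IL-4 value rested on IL-4 #3, without which it was −0.003. Nfkbib shares 314 exon bases with Ccer2 and 42 with Sirt2 on the opposite strand.

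Of the atypical, nuclear IκB proteins, Nfkbiz had the largest difference of any member with IL-4 and Bcl3 moved with both cytokines. Bcl3 (chr7:19808462-19822770, minus strand), a partner of p50 and p52 homodimers, had 13.8, 16.1 and 14.1 FPKM in the control libraries. It had 8.71, 8.96 and 9.21 FPKM in the IL-4 and 30.7, 33.2 and 35.1 FPKM in the IL-6 libraries. The IL-4 libraries lay closer together (SD 0.251) than for any other member with a mean above 1 FPKM in that group. Bcl3 rose with IL-6 by 1.165 in log2 (SE 0.110, limma adjusted p = 0.000549), and after adjustment for the set by 1.105, which just missed the threshold (adjusted p = 0.0515). With IL-4 its log2 fold change was −0.70 (SE 0.110, adjusted p = 0.00239). Bcl3 shares 161 exon bases with an antisense gene.

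Nfkbiz (chr16:55811375-55838899, minus strand) encodes IκBζ, a coactivator of secondary inflammatory genes. It had 7.93, 5.51 and 5.42 FPKM in the control libraries. It had 0.758, 0.868 and 0.444 FPKM in the IL-4 libraries, from 130, 132 and 89 fragments, and 12.7, 10.1 and 11.4 FPKM in the IL-6 libraries. The IL-4 libraries lay far below all others. Nfkbiz fell by 3.03 in log2 with IL-4 (SE 0.249, limma adjusted p = 9.94e-05), to 0.11 of the control mean. With IL-6 it differed by 0.865 in log2 (SE 0.249), which did not pass (adjusted p = 0.0778), although every IL-6 library was above every control. That value passed with a pseudocount of 1 (adjusted p = 0.0245), with median-ratio rescaling (0.0331), with quantile normalization (0.0146) and without IL-4 #3 (0.00816), and did not pass after adjustment for the set, where it was 1.11 with a wider SE of 0.463 (adjusted p = 0.26). Between IL-6 and IL-4 Nfkbiz differed by 3.90 (SE 0.249, adjusted p = 1.66e-05), a ratio of means of 16.5.

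Set directly against IL-4, IL-6 gave differences of 2.11 for Nfkb2, 2.399 for Relb, 2.29 for Nfkbia, 2.49 for Nfkbie and 1.87 for Bcl3 in log2, each with an SE of 0.110 to 0.173 and a limma adjusted p of 2.87e-05 or less. Rela differed by 0.65 (SE 0.135, adjusted p = 0.00692), a call lost with median-ratio rescaling (0.42, adjusted p = 0.15). The ratio of mean FPKM was 4.33 for Nfkb2, 5.28 for Relb, 4.92 for Nfkbia, 5.64 for Nfkbie and 3.68 for Bcl3. Nfkbib had the only negative estimate among the 10, −0.15 (SE 0.228, adjusted p = 0.616).

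**Figure D2:**
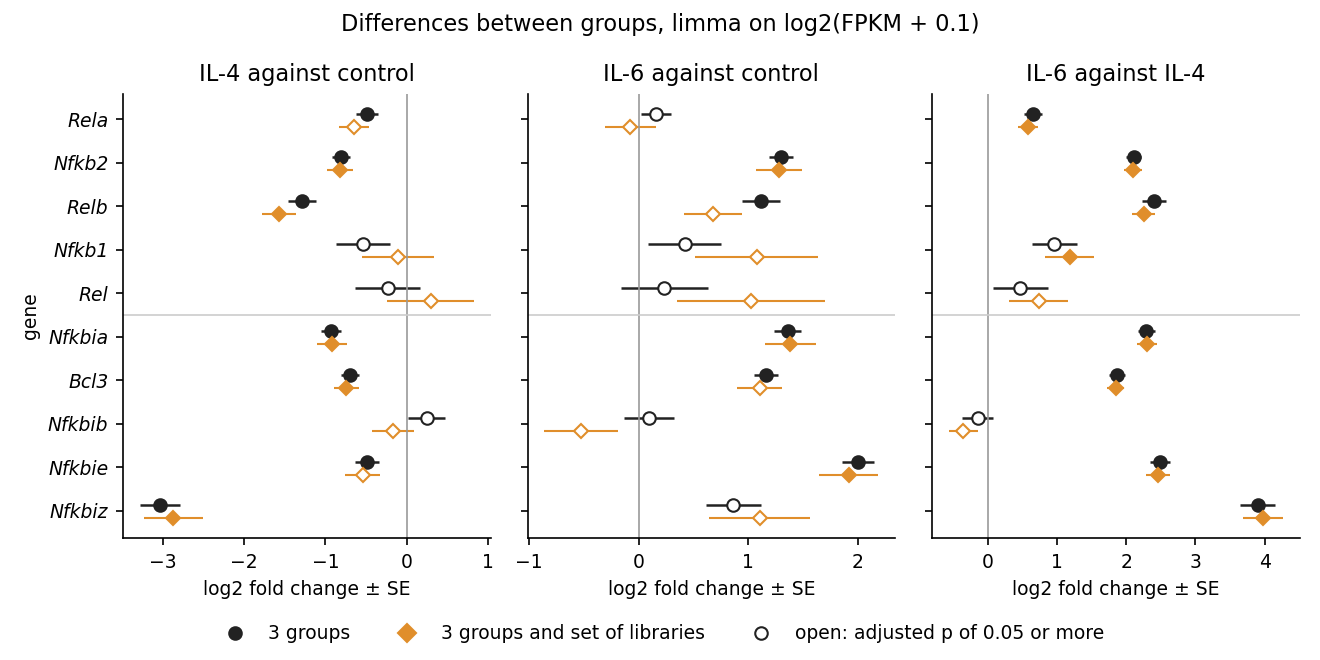
Log2 fold change of the 10 genes with its SE in the 3 comparisons, from the fit of 3 groups (black circles) and from the fit adjusted for the set of libraries (orange diamonds), filled where the adjusted p is under 0.05. After this adjustment the SE is wider in both comparisons with control, and Relb and Bcl3 join the open symbols for IL-6 against control.

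After adjustment for the set of libraries, 3 members rose with IL-6 against control: Nfkb2 (log2 fold change 1.28, adjusted p = 0.0371), Nfkbia (1.39, adjusted p = 0.0404) and Nfkbie (1.92, adjusted p = 0.0248). Of all genes, 1.46% passed in either direction in that fit. Against IL-4, 8 members were higher in IL-6 Mϕs, where 39.3% of all genes passed, and 5 fell with IL-4 against control (Nfkb2, Relb, Bcl3, Nfkbia and Nfkbiz), where 10.7% of all genes passed. This fit compares IL-4 #1 with the controls, and the IL-6 libraries with IL-4 #2 and #3, each within a set. IL-4 #1, the library in the set of the controls, had 0.563 of the control mean for Nfkb2, 0.328 for Relb, 0.528 for Nfkbia, 0.594 for Bcl3 and 0.121 for Nfkbiz. In the other set, the IL-6 mean was 4.31 times the mean of IL-4 #2 and #3 for Nfkb2, 4.94 times for Nfkbia, 5.51 times for Nfkbie and 3.63 times for Bcl3. The adjusted fit gave log2 differences of 2.10 for Nfkb2 (adjusted p = 4.09e-05), 2.30 for Nfkbia (4.71e-05), 2.46 for Nfkbie (6.89e-05) and 1.85 for Bcl3 (6.76e-05) there. In the comparison with the controls, IL-4 #1 is a lone library assumed to vary as the other libraries do.

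Without IL-4 #3, 7 members fell with IL-4 against control and 0 rose, where 37.8% of all genes passed in either direction. Against control, 7 members then rose with IL-6, Nfkb1 and Nfkbiz being added, where 24.7% of all genes passed, and 8 were higher in IL-6 than in IL-4 Mϕs, where 43.2% passed. IL-4 #3 differed from IL-4 #1 and #2 unevenly over the family. It had 0.393 of their mean for Nfkb1, 0.366 for Rel and 0.547 for Nfkbiz, the members with the longest exon totals (12061, 7466 and 5018 bases, as the steps of their FPKM values give them). It had 1.66 times their mean for Nfkbib, 1.32 times for Rela and 1.45 times for Relb, whose exon totals on the same basis are 2169, 2716 and 3885 bases. For Rela, M21 has 3072 bases. For Nfkb2, Nfkbia, Bcl3 and Nfkbie the ratio lay between 0.798 and 1.04. Their exon totals on that basis are 3289, 1610, 2475 and 2422 bases. The ratio thus did not follow exon total throughout, as Nfkbia, with the shortest total, was at 0.865. After trends on exon length and GC content had been removed from each library, the log2 fold change with IL-6 was 1.44 for Nfkb2, 1.51 for Nfkbia, 2.15 for Nfkbie, 1.33 for Bcl3 and 1.24 for Relb, all past the threshold.

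The makeup of the family differed between groups as well. The sums, ratios and shares that follow were not adjusted for the set of libraries. As no set holds both controls and IL-6 libraries, differences in makeup between IL-6 and control cannot be told apart from the set. Summed over the 5 subunits, control libraries held 91.5 to 99.4 FPKM, IL-4 libraries 61.5 to 65.7 and IL-6 libraries 153.3 to 159.5. The 5 IκB genes held 84.2 to 95.6 FPKM in the control, 51.6 to 58.0 in the IL-4 and 208.0 to 231.9 in the IL-6 libraries. The ratio of summed IκB genes to summed subunits was therefore 0.939 ± 0.0327 in control Mϕs, 0.879 ± 0.0634 in IL-4 Mϕs and 1.39 ± 0.0556 in IL-6 Mϕs (SD, n = 3). The control and IL-4 libraries overlapped in this ratio, and all IL-6 libraries, at 1.36 to 1.45, lay above both.

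Nfkb2 and Relb together made up 37.8% ± 1.11 of the subunit RNA in control Mϕs, 29.8% ± 1.42 in IL-4 Mϕs and 55.4% ± 0.341 in IL-6 Mϕs (SD, n = 3). The ranges of the 3 groups did not overlap, and the exact permutation test gave p = 0.1 for each pair of groups, the smallest it can give. Rela came second in IL-6 Mϕs, with 29.7% ± 0.655 of the subunit RNA against 43.0% ± 4.06 in control Mϕs, as Nfkb2 held 40.0% ± 0.332 there. Its share in IL-4 #3 was 57.3%, far above that in IL-4 #1 (41.47%) and IL-4 #2 (41.49%). The order in control Mϕs was Rela, Nfkb2, Relb, Nfkb1 and Rel, where Relb (11.1 FPKM) and Nfkb1 (10.6 ± 1.31 FPKM) did not differ beyond their spread.

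Among the IκB genes, Nfkbia held 55.2% ± 1.14 of the RNA in control Mϕs, 47.0% ± 5.37 in IL-4 Mϕs and 59.4% ± 2.41 in IL-6 Mϕs. Nfkbie held 8.40% ± 0.536 in control and 14.2% ± 0.254 in IL-6 Mϕs without overlap, and Nfkbib, whose own level overlapped between groups, made up 13.2% ± 1.98, 25.9% ± 7.39 and 5.90% ± 0.709 in control, IL-4 and IL-6 Mϕs. The share of Nfkbiz was 6.96% ± 1.52 in control and 1.24% ± 0.413 in IL-4 Mϕs. Bcl3 kept a share of 13.3 to 16.9% in all 9 libraries, and its groups overlapped.

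**Figure D3:**
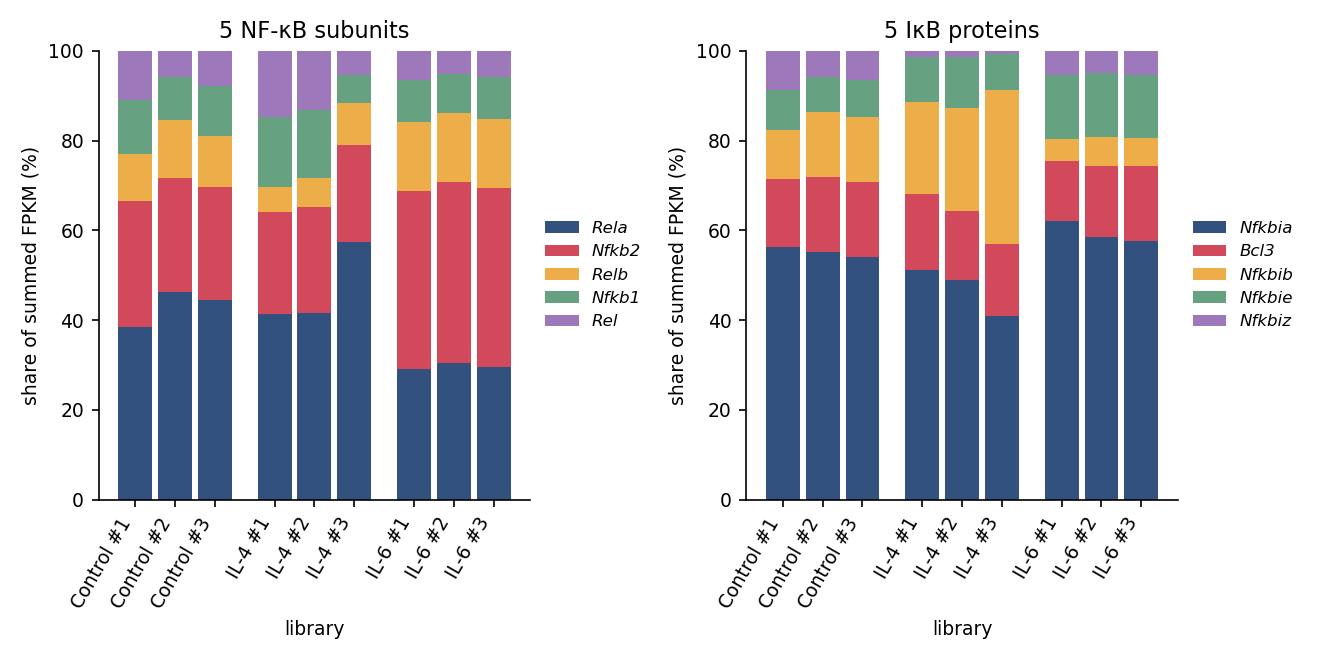
Share of each gene in the summed FPKM of the 5 subunits (left) and the 5 IκB genes (right) in percent, 1 bar per library. The red band of Nfkb2 is widest in the 3 IL-6 libraries (39.7 to 40.3%), and the purple band of Nfkbiz nearly vanishes in the 3 IL-4 libraries (0.769 to 1.497%).

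Since Nfkb2, Nfkbia, Nfkbie and Bcl3 moved together over the groups, the 250 bases before their start sites were read for the κB consensus, the 10-base motif that NF-κB dimers bind, and for TTCNNNGAA and TTCNNNNGAA, the forms bound by STAT factors downstream of IL-6 and IL-4. Both strands were searched. RefSeq (GRCm38.p6) gave such windows for 7 of the 10 members, 9 windows in all since Nfkb2 has 3 start sites. The members without one are Relb, Nfkb1 and Nfkbiz. The κB consensus was found in 6 of the 9 windows, the 3 of Nfkb2 and those of Nfkbia, Nfkbie and Rel, and in 7.25% of all 32851 windows of the same length. By gene these are 4 of the 7 members with a window, whereas the 7.25% counts windows. The middle and most downstream windows of Nfkb2 overlap. TTCNNNGAA was found in 1 of the 9, a window of Nfkb2, and in 7.02% of all windows. TTCNNNNGAA was found in 0 of the 9, and in 5.85% of all windows. The sequences of members that rose with IL-6 are shown 5′ to 3′ on the gene's own strand, ending at the base before the start site, with that of Rel, which holds the motif and did not pass. Capitals mark a match to any of the 3 motifs.
Nfkb2, upstream start site (chr19:46304487-46304736, plus strand): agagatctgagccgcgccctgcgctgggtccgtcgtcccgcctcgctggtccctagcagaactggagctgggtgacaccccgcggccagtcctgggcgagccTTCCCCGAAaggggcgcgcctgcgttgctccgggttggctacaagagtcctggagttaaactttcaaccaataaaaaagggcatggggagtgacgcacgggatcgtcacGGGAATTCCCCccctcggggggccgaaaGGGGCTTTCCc
Nfkb2, middle start site (chr19:46305445-46305694, plus strand): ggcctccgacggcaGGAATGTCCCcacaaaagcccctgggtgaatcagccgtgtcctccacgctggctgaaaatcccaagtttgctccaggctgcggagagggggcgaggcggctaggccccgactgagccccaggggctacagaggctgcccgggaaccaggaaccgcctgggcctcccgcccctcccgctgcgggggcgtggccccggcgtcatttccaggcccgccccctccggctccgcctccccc
Nfkb2, most downstream start site (chr19:46305680-46305929, plus strand): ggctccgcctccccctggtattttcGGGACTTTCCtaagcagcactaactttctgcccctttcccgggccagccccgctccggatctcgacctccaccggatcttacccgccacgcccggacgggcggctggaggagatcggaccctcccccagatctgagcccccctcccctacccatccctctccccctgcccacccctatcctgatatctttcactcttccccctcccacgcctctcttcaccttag
Nfkbia (chr12:55492648-55492897, minus strand): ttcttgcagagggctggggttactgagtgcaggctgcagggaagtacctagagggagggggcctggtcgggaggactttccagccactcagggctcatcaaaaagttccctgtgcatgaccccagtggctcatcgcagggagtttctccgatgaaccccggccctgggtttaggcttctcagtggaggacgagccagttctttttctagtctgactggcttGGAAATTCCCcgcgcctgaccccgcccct
Nfkbie (chr17:45555450-45555699, plus strand): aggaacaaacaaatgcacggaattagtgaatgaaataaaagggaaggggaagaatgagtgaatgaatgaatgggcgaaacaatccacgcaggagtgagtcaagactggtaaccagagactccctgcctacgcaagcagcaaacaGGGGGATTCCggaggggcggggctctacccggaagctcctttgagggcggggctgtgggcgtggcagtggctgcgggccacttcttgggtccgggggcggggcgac
Rel (chr11:23770970-23771219, minus strand): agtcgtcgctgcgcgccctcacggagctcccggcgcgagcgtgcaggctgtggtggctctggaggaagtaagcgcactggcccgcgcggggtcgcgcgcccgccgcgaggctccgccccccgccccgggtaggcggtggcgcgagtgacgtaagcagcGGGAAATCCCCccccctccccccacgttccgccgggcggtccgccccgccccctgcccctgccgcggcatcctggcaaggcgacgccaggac
Bcl3 (chr7:19822756-19823005, minus strand): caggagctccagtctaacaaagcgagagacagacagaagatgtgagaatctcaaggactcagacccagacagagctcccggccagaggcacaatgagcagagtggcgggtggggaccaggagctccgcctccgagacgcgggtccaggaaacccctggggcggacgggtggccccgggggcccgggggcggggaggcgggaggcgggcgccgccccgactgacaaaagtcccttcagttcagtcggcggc

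The upstream Nfkb2 window held 3 matches to the κB consensus, of which the pair at 39 and 38 bases before the start overlap and the last began 11 bases before it, and 1 match to TTCNNNGAA that began 148 bases before the start. The middle Nfkb2 window held 1 match to the κB consensus 236 bases before its start, and the most downstream one held 1 at 225 bases. Nfkbia had its match 29 bases before the start and Nfkbie 106 bases before it. Rel had a pair of overlapping matches at 92 and 91 bases before its start. The windows of Bcl3, Rela and Nfkbib held none of the 3 motifs. A match is a string of letters and was not measured as a bound site here, and a window without one says nothing about sites elsewhere.

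The genes most like Nfkb2 over the 9 libraries were sought among all tested genes by Pearson's r of log2(FPKM + 0.1). They were Sfxn5 (r = 0.997), the member Nfkbia (0.997), Ednrb (0.997), Gpr84 (0.995) and Gm44418 (0.994). Ednrb, an endothelin receptor, went from 13.7 FPKM in control to 2.23 in IL-4 and 185 in IL-6 Mϕs, a far wider range than that of Nfkb2 on the same order. Gpr84, a receptor for medium-chain fatty acids, had 2.82, 1.05 and 17.8 FPKM in the same order of groups. The genes most like Bcl3 were F11r (0.998), Cyp4f16 (0.994), Fas (0.993), Serpinb10 (0.993) and Pilra (0.992). Fas, a death receptor, had 7.51 FPKM in control Mϕs, 3.43 in IL-4 Mϕs and 17.6 in IL-6 Mϕs. Within the family, Nfkb2 had r of 0.988 with Bcl3, 0.977 with Nfkbie, 0.961 with Relb and 0.901 with Nfkbiz, but 0.447 with Rel and −0.24 with Nfkbib. These are descriptions over n = 9 libraries, which share 3 group means and the same depth and sets.

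The rest of the pathway was followed in 3 lists. Of 18 kinases and adaptors that carry the signal to IκB, 0 rose and 5 fell with IL-4 against control, 1 rose and 0 fell with IL-6 against control, and 11 were higher and 0 lower in IL-6 than in IL-4 Mϕs. Over all genes tested, 16.3% fell with IL-4, 4.58% rose with IL-6 and 20.8% were higher in IL-6 than in IL-4 Mϕs, so that the 1 of 18 with IL-6 is near the share of all genes. Ikbke, a kinase related to IκB kinase, fell by 1.92 in log2 with IL-4 (SE 0.157, limma adjusted p = 8.6e-05), from 42.2 to 11.1 FPKM. Map3k14, which encodes the kinase NIK of the non-canonical route, differed by −0.95 in log2 with IL-4 (SE 0.171, adjusted p = 0.0048), Tab1 by −0.52 (adjusted p = 0.013) and Ikbkb, a catalytic subunit of IκB kinase, by −0.63 (adjusted p = 0.026). The count of 5 was 2 to 8 when single libraries were left out, with 8 without IL-4 #3, and 2 after adjustment for the set. The gene that rose with IL-6 was Myd88, the adaptor of Toll-like and IL-1 receptors (log2 fold change 0.815, SE 0.104, adjusted p = 0.00252), which missed the threshold after adjustment for the set (0.62, adjusted p = 0.144). Without that adjustment, the log2 fold change of Map3k14 with IL-6 was 0.32 (SE 0.171, adjusted p = 0.341). The median log2 fold change of the list was −0.485 with IL-4 and 0.32 with IL-6.

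Of 10 brakes and further IκB proteins, 0 rose and 2 fell with IL-4, and 1 rose and 0 fell with IL-6 against control. The shares of all genes were 16.3% falling with IL-4 and 4.58% rising with IL-6, so that 2 of 10 falling is near the share of all genes. Tnip1, a partner of the deubiquitinase A20, fell by 1.07 with IL-4 (SE 0.101, limma adjusted p = 0.000185). Irak3, the inhibitory IRAK of Mϕs, fell by 1.81 with IL-4 (SE 0.257, adjusted p = 0.00155) and rose by 1.16 with IL-6 (adjusted p = 0.0302), from 12.7 to 3.71 and 28.4 FPKM. The rise with IL-6 was lost whenever a control or IL-6 library was left out, and after adjustment for the set, where the log2 fold change was 1.70 (adjusted p = 0.121). Between IL-6 and IL-4, 4 of the 10 were higher in IL-6 Mϕs (Irak3, Tnip1, Tnfaip3 and Zc3h12a) and 0 lower, where 20.8% of all genes were higher. Tnfaip3, which encodes A20 and is itself a known NF-κB target, differed by 0.73 between IL-6 and control (SE 0.254, adjusted p = 0.14) and by 1.32 between IL-6 and IL-4 (SE 0.254, adjusted p = 0.00523).

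Of 30 textbook NF-κB target genes, 26 could be tested. With IL-6 against control 11 rose and 1 fell, and with IL-4 against control 3 rose and 15 fell. Of all genes tested, 4.58% rose and 3.82% fell with IL-6, and 8.55% rose and 16.3% fell with IL-4. The median log2 fold change of the 26 was 0.69 with IL-6 and −0.76 with IL-4. With IL-6, Sod2, the mitochondrial superoxide dismutase, rose by 2.51 (SE 0.108, limma adjusted p = 1.27e-05) and the neutrophil chemokine Cxcl2 by 3.57 (SE 0.169, adjusted p = 1.92e-05). The cytokine Il1b rose by 4.475 (SE 0.249, adjusted p = 4.98e-05) and the chemokine Ccl5 by 2.93 (SE 0.211, adjusted p = 0.000191). Cd83, a surface marker of activated antigen-presenting cells, was the one that fell with IL-6 (log2 fold change −1.37, adjusted p = 0.000215), and it fell with IL-4 also (−0.84, adjusted p = 0.000707). With IL-4, Marcksl1 differed by −3.41 (adjusted p = 3.48e-06), the interferon-induced chemokine Cxcl10 by −4.29 (adjusted p = 5.71e-05) and Ccl3 by −1.86 (adjusted p = 0.000115). Cxcl10 had a mean of 4.28 FPKM in control and 0.126 in IL-4 Mϕs. The latter is near the 0.1 added before the logarithm, so the size of its fold change depends on that setting. The 3 that rose with IL-4, named after their values were seen, were Ccl2 (3.00, adjusted p = 0.00173), Bcl2a1d (1.95, adjusted p = 0.0038) and Cd40 (1.05, adjusted p = 0.0057). After adjustment for the set the calls of Bcl2a1d (1.27, adjusted p = 0.0592) and Cd40 (1.08, adjusted p = 0.0581) were lost. Cd40, a receptor of the TNF receptor family, rose with IL-6 as well (1.22, adjusted p = 0.00714, and 1.27 with adjusted p = 0.158 after that adjustment). Bcl2a1d has near-identical copies in the genome, so its value is uncertain.

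Between IL-6 and IL-4, 20 of the 26 targets were higher and 5 lower in IL-6 Mϕs, where 20.8% of all genes were higher and 13.3% lower. Ptgs2 and Traf1, named after their values were seen, were among those higher. Marcksl1 differed by 5.40, Il1b by 6.01, Cxcl2 by 4.77 and Sod2 by 2.55 in log2, with a limma adjusted p of 1.88e-06 or less. The 5 that were lower, named after their values were seen, were Ccl2, Bcl2a1d, Ccnd1, Bcl2l1 and Cd83, with log2 differences of −3.06 to −0.53. After adjustment for the set, 8 targets rose and 1 fell with IL-6 against control, and 1 rose and 8 fell with IL-4. Ptgs2 and Traf1 were among the 8 that rose with IL-6. In that fit 1.46% of all genes passed in either direction with IL-6 and 10.7% with IL-4.

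**Figure D4:**
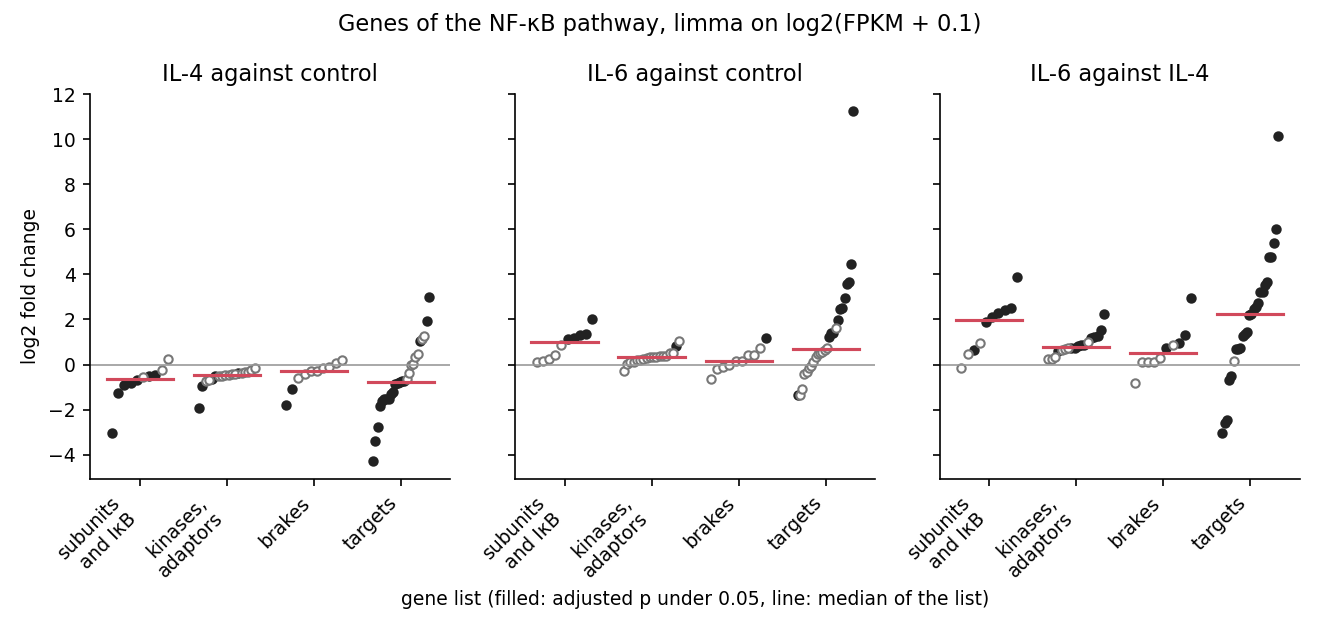
Log2 fold change of the 10 subunits and IκB genes and of the 3 pathway lists in the 3 comparisons, 1 point per gene in order of size, filled where the limma adjusted p is under 0.05, red lines for the list medians. The targets spread the widest, from −4.29 to 3.00 with IL-4 and up to 11.25 (Saa3) with IL-6, while the kinases and adaptors lie between −1.92 and −0.15 with IL-4.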

How the data were processed

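The authors deposited a table of FPKM values for 9 RNA-seq libraries of Mϕs (3 Control, 3 IL-4, 3 IL-6). The methods name STAR 2.4.2a, GRCm38, Cufflinks 2.2.1 and a GENCODE annotation. The identifiers matched GENCODE M21 with their version for 50604 of 53379 genes (94.8%). For 1468 genes without a versioned match, the shortest length that makes all 9 values whole was taken. Among genes with such a match, 141433 values lay under 1000 fragments. Of these, 100.0% were whole fragments within 0.05 at exon lengths of M21, so depth could be read back. Which program and annotation made the table is thus uncertain. No filter is described, and 22332 genes had no fragment in any library. Coordinates are from M21. No column of the table lacked a sample in the labels.

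FPKM were transformed as log2(FPKM + 0.1), which understates changes of low genes. The 12824 genes with a mean of at least 0.5 FPKM entered a limma fit (limma 3.58.1, R 4.3.3) of 3 group means, moderated by eBayes with trend and robust, and p-values were adjusted by Benjamini-Hochberg. All adjusted p-values come from limma and are two-sided. Exact permutation tests of 3 against 3 and plots were made in Python 3.11.15 (numpy 2.4.6; pandas 2.3.3; matplotlib 3.10.9). The fit was also run on simulated fragments that held no outlying library and no sets, so that run cannot show how the fit deals with these. The members, the pathway lists and the tests were chosen with earlier results of these data known. All 10 members are named, with up to 4 examples of smallest adjusted p per list and comparison, Socs3 and Arg1 as checks, and the 5 genes of highest r with Nfkb2 and Bcl3. The set of libraries was defined by 20 or more fragments of 13 intestinal genes, Lyz1 being left out for its copy Lyz2 in Mϕs. Alternatives were another pseudocount (1 or 0.01), no filter or a mean of at least 5 FPKM, median-ratio rescaling, quantile normalization, fitting only the groups compared, eBayes without trend and robust, the set and the number as terms, voom on the recovered fragments, a log2 fold change of at least 1, and leaving out each library. Removal of length and GC trends (splines with 5 degrees of freedom) was chosen after seeing the data.

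The labels give the same numbers 1 to 3 in each group and the table marks them as mice, and the pairing rests on that. Deviations of same-numbered libraries from their group means had r of 0.521, −0.415 and 0.0777 between IL-4 and control, 0.408, 0.201 and 0.166 between IL-6 and control, and 0.281, −0.0612 and 0.153 between IL-6 and IL-4. Nothing else says whether replicates were separate cultures, and p-values measure only the spread between these libraries.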

Additional observations from a re-analysis of the deposited data

How the results depend on the processing

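Of 660 log2 fold changes recomputed for the 10 members under the alternatives, 606 kept their side of the threshold and, where they were given one, their direction. Of the others, 35 no longer passed, 15 passed newly and 4 changed sign. Of 189 recomputed counts of the pathway lists, 31 moved by over 1.5 times. A log2 fold change smaller than its SE was given no direction, and its changes of sign were not counted. Rel with IL-4, for example, went from −0.234 to 0.293 after adjustment for the set. The changes of sign counted were −0.168 for Nfkbib with IL-4 after adjustment for the set of libraries, a range of −0.003 to 0.45 for the same value when single libraries were left out, −0.076 for Rela with IL-6 after that adjustment, and a range of −0.004 to 0.733 for Rel between IL-6 and IL-4 when single libraries were left out, the lowest of both ranges without IL-4 #3. When a size of at least 1 in log2 was demanded as well, 2 members passed for IL-4 against control, and 5 to 7 did under the other alternatives. After adjustment for the set, 3 members passed for IL-6 against control, all higher. Over all genes, 3186 passed between IL-4 and control, 1077 between IL-6 and control and 4375 between the cytokines. These counts became 1839, 628 and 2479 at a mean of at least 5 FPKM, where 6559 genes were tested, and 1784, 690 and 2613 when a size of at least 1 in log2 was demanded. They became 1796 and 2822 for the comparisons with control when only the groups compared were fitted, and 1367 and 187 after adjustment for the set. Leaving out single libraries gave 2026 to 4848, 462 to 3168 and 2911 to 5544, each highest without IL-4 #3, and lowest without Control #3, Control #3 and IL-6 #3. With the replicate block, 3023, 908 and 4463 genes passed, and no member changed its call. Median-ratio rescaling moved the median log2 fold change of all genes with IL-4 from −0.197 to −0.003, and the share of passing genes that were higher from 34.4% to 49.4% with IL-4 and from 61.1% to 48.5% between IL-6 and IL-4. The causes of these changes were not tested. With 3 libraries a group and the sets divided as they are, the comparison of IL-6 with control cannot be told apart from the set except through the IL-4 libraries. Counting error is small at these depths, with 89 fragments at the least for a member.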
